A study of Homo sapiens with 8 samples.

Results

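Splicing of messenger RNA depends on RNA-binding proteins that mark exons, and on kinases that control those proteins. The genes described here are 45 of the 24598 genes in the deposited expression table: every protein-coding gene whose symbol belongs to the SRSF, HNRNP, CLK, TRA2 or SRPK series. They comprise 12 SRSF genes (serine and arginine rich splicing factors), 24 HNRNP genes (heterogeneous nuclear ribonucleoproteins), 4 CLK genes (CDC-like kinases), 2 TRA2 genes (transformer 2 homologs) and 3 SRPK genes (SR protein kinases). The members were taken by gene symbol alone, under a rule chosen with earlier results of these data known.

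SR proteins bind exonic enhancer sequences and recruit the early spliceosome, and many hnRNPs bind silencer sequences or package nascent transcripts and oppose exon use at some sites. SRPK kinases phosphorylate the serine and arginine repeats of SR proteins in the cytoplasm and promote their import, and CLK kinases phosphorylate them further in the nucleus. The TRA2 proteins are SR-like activators. Many genes of these families limit their own product by including a poison exon, which sends the transcript to nonsense-mediated decay, or by retaining an intron.

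RNA came from CCD-1077Sk cells, an established line of fibroblasts from normal human skin, collected 6 h after treatment as 8 libraries in 4 groups of 2. The control group received bovine serum albumin, citric acid and DMSO, the vehicles. The TGFB1 group received transforming growth factor beta 1, a cytokine that activates fibroblasts, with DMSO. The celastrol group received celastrol, a plant triterpenoid known to induce the heat shock response, at 500 nM with albumin and citric acid, and the last group received TGFB1 with celastrol at 500 nM. The series was designed to ask how celastrol alters the response of these cells to TGFB1. The dose of TGFB1 was not given in the sources used here, and neither was any statement that the 2 libraries of a group are separate cultures. The p-values therefore rest on a spread between libraries that may be only technical. All cells were of 1 line.

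Depth lay between 20716725 and 42518367 estimated reads per library. Values are normalized reads, meaning estimated reads divided by 1 size factor per library, and 3 reads, the limit that a count of 0 allows, correspond to 1.80 to 4.24 normalized reads. All 45 members passed the filter, which asked for 10 or more normalized reads in 2 or more libraries. The 14 fibroblast markers were all in the table. Their summed level was 521003 to 544039 in the controls, 614197 to 742658 after TGFB1, 445384 to 523836 after celastrol and 425995 to 490181 after both agents. The 4 of 8 keratinocyte markers in the table summed to 955 to 1042 in the controls and 982 to 1097 after TGFB1. They summed to 955 to 1115 after celastrol and 1000 to 1036 after both agents, with DSG3, KRT1, KRT14 and KRT5 not listed. With celastrol and TGFB1, 2 of these 4 were called higher and 1 lower. Summed levels of the 4 of 6 endothelial markers in the table were 52.8 to 92.5 in control libraries and 52.7 to 98.9 after TGFB1. They were 354 to 370.5 with celastrol and 360 to 465 after both agents, with CDH5 and CLDN5 not listed. Summed levels of 3 of 6 melanocyte markers were 1034 to 1074 in the controls, 222 to 236 after TGFB1, 1312 to 1365 after celastrol and 1270.0 to 1312 after both agents, with DCT, SOX10 and TYR not listed. After TGFB1 alone 1 of the 3 was called lower (log2 fold change -2.26) and 2 had values above 0. The lower sum in that group is therefore due to 1 gene. With celastrol and TGFB1, 2 of the 3 melanocyte and 2 of the 4 endothelial markers were called higher and 0 lower. Of the 14 fibroblast markers, 6 were called lower and 2 higher in that comparison. Celastrol without TGFB1 had 2 melanocyte, 3 endothelial and 3 fibroblast markers called higher and 0 lower. The shares of all genes called with celastrol are given below. The part of these genes in the results below was not tested. In bulk RNA, fewer cells of a type and less RNA per cell cannot be told apart.

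Among the 45 genes, the largest called changes were those of CLK2 and CLK1. For these, bases upstream of the RefSeq start site (GRCh38.p14) are shown, because both genes lie on the minus strand, belong to 1 family and moved in opposite directions. Only bases outside annotated exons are printed, 5′ to 3′ in the direction of transcription. The CLK1 run is chr2:200864745-200864908 and ends 86 bases before the start site, and the CLK2 run is chr1:155273517-155273754 and ends 12 bases before it. The CLK1 run lies outside the annotated span of its gene. The CLK2 run lies inside that of its gene (chr1:155262868-155278491), so it is not upstream of every annotated form.
CLK1: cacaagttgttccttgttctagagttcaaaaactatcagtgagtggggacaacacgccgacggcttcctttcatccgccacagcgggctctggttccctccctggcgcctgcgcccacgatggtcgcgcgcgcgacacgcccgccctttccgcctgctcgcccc
CLK2: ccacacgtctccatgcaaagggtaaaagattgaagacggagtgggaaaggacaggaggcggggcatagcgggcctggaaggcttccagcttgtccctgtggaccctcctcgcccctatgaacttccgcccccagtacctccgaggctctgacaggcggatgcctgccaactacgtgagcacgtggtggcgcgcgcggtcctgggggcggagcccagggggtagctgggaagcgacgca

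The runs are similar in composition, with 63.4% G or C over 164 bases for CLK1 and 64.7% over 238 bases for CLK2. Neither holds a match, on either strand, to a heat shock element of 3 units (GAA, TTC and GAA with 2 free bases between units), GAANNTTC (2 of its units, contained in the longer motif), TGACGTCA (a cyclic AMP response element) or TGANTCA (an AP-1 site), and no letters are in capitals for that reason. Over the windows of 250 bases before a start site, 41 of the 45 members had an entry. The 3-unit heat shock element was found in 0.441% of all 35116 windows and, among the members, in HNRNPA2B1 alone. That gene was singled out after its values were seen. Its element lies at chr7:26200772-26200784 on the minus strand, inside an annotated exon, 25 bases before the RefSeq start site, with the conserved letters and spacers all in capitals.
HNRNPA2B1: GAAGGTTCTAGAA

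The 2-unit motif was found in 5.78% of all windows and in those of HNRNPA2B1, HNRNPC and SRSF8. TGACGTCA was in 1.65% and TGANTCA in 6.57% of all windows, and neither was in a member's window. For comparison, 3 of 10 heat shock genes whose messages served as a reference had a window with the 3-unit motif and 7 had one with the 2-unit motif. These are matches of letters in a short window and do not show binding.

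Celastrol was compared in each setting of TGFB1. The comparison of celastrol with TGFB1 sets the TGFB1 plus celastrol group against the TGFB1 group, and that without TGFB1 sets the celastrol group against the control group. With TGFB1, limma called 25 of the 45 members lower and 6 higher (adjusted p under 0.05; the 6 include SRPK3, whose difference is a description only), where 25.9% of all 22866 genes tested were called lower and 37.5% higher. Abundant genes fell more often: among the 8131 genes with a mean of at least 500 normalized reads, a class that holds 40 of the 45 members, 46.0% were called lower and 22.6% higher. Without TGFB1, 22 members were called lower and 7 higher, beside 21.3% and 33.8% of all genes tested and 32.5% and 23.8% of the abundant ones. The median log2 fold change over the 45 members was -0.26 with TGFB1 and -0.20 without it, and over all genes tested it was 0.12 and 0.08. In both comparisons the members' share called lower was above that of abundant genes, a class that does not hold every member. That difference was not tested, and the results below describe which families and genes moved.

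Celastrol split the CLK kinases. CLK1 and CLK3 rose, CLK2 and CLK4 fell, and each change was called both with and without TGFB1. CLK2 had the largest called fall of the 45 genes, 6.58-fold in each comparison, and CLK1 rose 4.25-fold with TGFB1 and 4.43-fold without it. As a reference for the treatment, the inducible heat shock gene HSPA1A went from 1954 ± 186 (SD, n = 2) normalized reads with TGFB1 to 181514 ± 951 with TGFB1 and celastrol.

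CLK1, a kinase whose transcript is known to be held partly as an intron-retaining form, read 1719.7 and 1879 normalized reads in the controls, 1881 and 1931 after TGFB1, 7383 and 8612 after celastrol, and 8220.5 and 7977 after both agents. All 4 libraries with celastrol lay above all 4 without it. The log2 fold change was 2.09 ± 0.08 (SE) with TGFB1 (limma adjusted p = 4.14e-07) and 2.15 ± 0.08 without it (adjusted p = 4.4e-07). The gene lies at chr2:200853009-200864744 and shares no exon bases with another gene in GENCODE release 29.

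CLK2, which phosphorylates SR proteins and also acts in hepatic metabolism, read 724 and 669 in the controls, 719 and 689 after TGFB1, 105 and 104 after celastrol, and 103 and 109.7 after both agents. The libraries with and without celastrol did not overlap. The log2 fold change was -2.72 ± 0.10 with TGFB1 (limma adjusted p = 4.16e-07) and -2.72 ± 0.10 without it (adjusted p = 4.94e-07). The gene lies at chr1:155262868-155278491. Of the 31-base words of its transcripts, 8.34% also occur in the pseudogene CLK2P1, so a small part of its reads may be shared.

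CLK3 read 800.4 and 894 in the controls, 836 and 869 after TGFB1, 1834 and 1801 after celastrol, and 1972 and 1772 after both agents. Its log2 fold change was 1.13 ± 0.08 with TGFB1 and 1.10 ± 0.08 without it (limma adjusted p = 6.59e-06 and 9.95e-06), and the groups did not overlap. CLK4, the closest relative of CLK1, read 804 and 871 (controls), 802 and 702 (TGFB1), 386 and 436 (celastrol) and 401 and 350.0 (both agents). Its log2 fold change was -1.0 ± 0.11 with TGFB1 and -1.03 ± 0.11 without it (limma adjusted p = 7.56e-05 and 8.61e-05). The 4 CLK calls in each comparison kept their direction and their call under all 17 alternative settings.

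Per kilobase of merged exon, the order of the 4 kinases in the control group was CLK1 (348 normalized reads per kilobase), CLK2 (189.8), CLK4 (105.7) and CLK3 (41.4). With celastrol the order was CLK1 (1547), CLK3 (88.9), CLK4 (51.8) and CLK2 (28.6). CLK2 went from second highest to lowest. Merged exon length counts every annotated exon, 20443 bases for CLK3 against 3670 for CLK2, so levels per kilobase understate a gene with many long minor forms. TGFB1 alone left the 4 kinases uncalled, with log2 fold changes between -0.16 and 0.08.

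**Figure D1:**
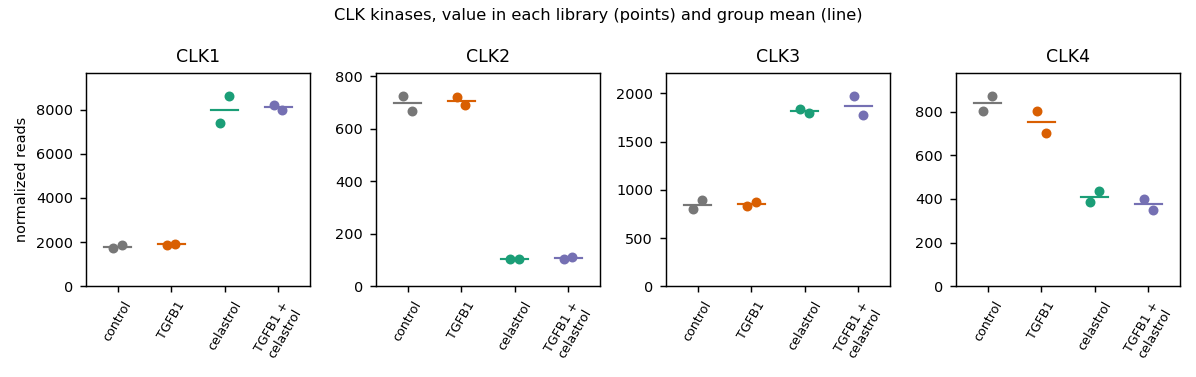
Normalized reads (vertical axis, from 0, its own scale in each panel) of CLK1, CLK2, CLK3 and CLK4 in the 4 groups, with 1 point per library and a line at the mean of the 2 libraries. CLK1 and CLK3 are higher and CLK2 and CLK4 lower in every library with celastrol.

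Of the SRPK kinases, SRPK1 fell with celastrol and SRPK2 was not called. SRPK1, the main cytoplasmic SR protein kinase of most cells, read 2874 and 2753 normalized reads in the controls, 3058 and 2822 after TGFB1, 2101 and 1935 after celastrol, and 2016 and 2049 after both agents. All libraries with celastrol lay below all those without it, and the log2 fold change was -0.53 ± 0.07 with TGFB1 and -0.48 ± 0.07 without it (limma adjusted p = 0.00015 and 0.000357). SRPK2 read 1399.6 and 1374 (controls), 1480.1 and 1469.9 (TGFB1), 1356 and 1329 (celastrol) and 1313 and 1360.5 (both agents) and was called in no comparison, with log2 fold changes between -0.14 and 0.09.

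SRPK3, a muscle-enriched family member, was near the limit of the data. It read 6.58 and 6.6 normalized reads in the controls, 2.82 and 3.69 after TGFB1, 8.63 and 9.39 after celastrol, and 14.3 and 15.1 after both agents. Only the last group reached 10, so it entered the tests through the group where it was high, and its difference with TGFB1 (3.70-fold) is a description only. Its exons share 30.2% of their bases with PLXNB3.

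Most SR protein genes fell with celastrol, and SRSF5 and SRSF12 were called in neither comparison. With TGFB1 present, 10 of the 12 SRSF genes were called lower and 0 higher, with a median log2 fold change of -0.53. Without TGFB1, 9 were called lower and 0 higher, with a median of -0.34. These counts stand beside the shares of all genes and of abundant genes given above, with no test of the list.

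SRSF2, an SR protein that binds both G-rich and C-rich exonic enhancers, had the largest fall of the family with TGFB1 present. It read 3816 and 3623 normalized reads in the controls, 5373 and 5270.2 after TGFB1, 2593 and 2319 after celastrol, and 2523 and 2596 after both agents. Both TGFB1 libraries were the highest, and the 4 celastrol libraries overlapped each other below the controls. Its log2 fold change with celastrol was -1.06 ± 0.07 with TGFB1 and -0.60 ± 0.07 without it (limma adjusted p = 3.65e-06 and 9.59e-05). SRSF2 (chr17:76734115-76737333) shares 36.7% of its exon bases with MFSD11 on the opposite strand, whose log2 fold change was 0.81 with TGFB1. Whether the counting used strand was not given in the sources used here, and reads in the shared bases may belong to either.

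SRSF4, a large SR protein with a long repeat domain, read 3102 and 2810.2 in the controls, 3224 and 3017 after TGFB1, 1554 and 1528 after celastrol, and 1631 and 1453 after both agents. The libraries with celastrol stood at about the same level in both groups and below every library without it. The log2 fold change was -1.02 ± 0.08 with TGFB1 and -0.94 ± 0.08 without it (limma adjusted p = 1.02e-05 and 2.16e-05). SRSF4 had the largest fall of the family without TGFB1.

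SRSF10, an SR protein known to act as a splicing repressor when dephosphorylated after heat shock, read 5439 and 5099 in the controls, 6281 and 5893 after TGFB1, 3222 and 3279.7 after celastrol, and 3189.8 and 3152 after both agents. The groups with and without celastrol did not overlap, and the log2 fold change was -0.94 ± 0.06 with TGFB1 and -0.70 ± 0.06 without it (limma adjusted p = 3.33e-06 and 2.18e-05). SRSF7, which also acts in mRNA export, read 2778 and 2702 (controls), 3657 and 3613 (TGFB1), 1830.4 and 1855 (celastrol) and 1868 and 2034 (both agents). It was highest with TGFB1 and lowest in the celastrol groups, with log2 fold changes of -0.90 ± 0.06 and -0.57 ± 0.06 (limma adjusted p = 4.94e-06 and 7e-05). SRSF11, also known as p54, read 4337 and 4253 (controls), 4777 and 4327 (TGFB1), 2615 and 2763 (celastrol) and 2616 and 2704 (both agents), with log2 fold changes of -0.77 and -0.68.

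Other SRSF genes were called with smaller falls or not at all. SRSF8 had log2 fold changes of -0.59 with TGFB1 and -0.34 without it, SRSF1 of -0.46 and -0.33, SRSF6 of -0.41 and -0.19, and SRSF3 of -0.36 and -0.24, all called. SRSF9 was called with TGFB1 (-0.35, limma adjusted p = 0.000582) and missed the threshold without it (-0.14, adjusted p = 0.0515). It shares 46.2% of its exon bases with GATC on the opposite strand, which had log2 fold changes of -0.32 and -0.36. SRSF5 was called in neither comparison, with log2 fold changes of -0.03 and -0.07 and values from 2379 to 2757 across the 8 libraries. SRSF12, at 17.2 to 41 normalized reads the least abundant of the family, was not called either, with log2 fold changes of -0.12 with TGFB1 and 0.63 without it (limma adjusted p = 0.784 and 0.163). Some calls without TGFB1 were lost with 1 library left out. For SRSF8 these were control replicate 2 (adjusted p = 0.139) and celastrol replicate 1 (0.144), and for SRSF3 control replicate 1 (0.0709) and celastrol replicate 2 (0.0688). For SRSF6 they were either control library (0.115 and 0.0592) and either celastrol library (0.0651 and 0.0874).

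SRSF1, the founding SR protein, was the most abundant of the 12 per kilobase of merged exon in every group, at 3213 normalized reads per kilobase in the control group and 2549 with celastrol. In the control group SRSF6 (1249), SRSF2 (1233) and SRSF3 (1098) came next. In the TGFB1 group SRSF2 (1764) moved above SRSF6 (1475), and with celastrol SRSF2 (814) lay below both SRSF6 (1095) and SRSF3 (929.7). SRSF1 shares 56.6% of its exon bases with AC015813.2 on the same strand, which read 163 or less in the control and celastrol libraries.

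**Figure D2:**
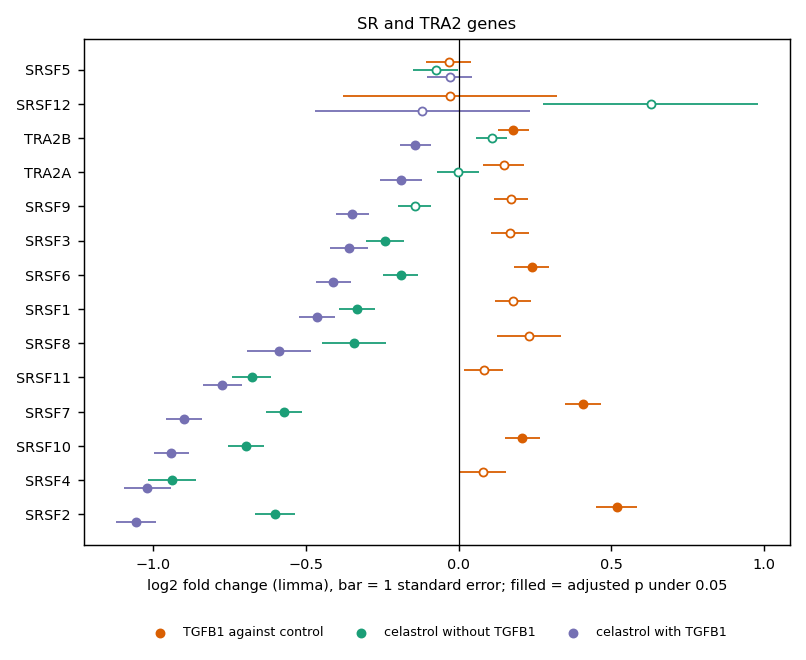
Log2 fold changes (horizontal axis, limma, bars of 1 SE) of the 12 SRSF and 2 TRA2 genes for TGFB1 against control and for celastrol without and with TGFB1, ordered by the last. Filled points have an adjusted p under 0.05, and the purple points for celastrol with TGFB1 run from -0.03 for SRSF5 to -1.06 for SRSF2.

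The SR-like TRA2 genes moved little. TRA2B, an activator of exons with GAA-rich enhancers, read 7992 and 7666 normalized reads in the controls, 8873 and 8853 after TGFB1, 8579 and 8296 after celastrol, and 8012 and 8059 after both agents. It was highest in the TGFB1 libraries, and its log2 fold change with celastrol was -0.14 ± 0.05 with TGFB1 (limma adjusted p = 0.0374) and 0.11 ± 0.05 without it (adjusted p = 0.104). TRA2A read 2952 and 2782 (controls), 3352 and 3006 (TGFB1), 2923 and 2804 (celastrol) and 2746 and 2827 (both agents), with log2 fold changes of -0.19 (adjusted p = 0.0379) and -0.00 (adjusted p = 0.987). The TRA2A call with TGFB1 was lost on leaving out any library other than TGFB1 replicate 2, for example TGFB1 replicate 1 (-0.11, adjusted p = 0.209). That of TRA2B was lost on leaving out any library outside the celastrol group, for example either TGFB1 plus celastrol library (adjusted p = 0.113 and 0.096). Dividing every library by its total turned the TRA2B value to 0.02.

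The hnRNP genes did not move as a block. With TGFB1 present 10 of 24 were called lower, 3 higher and 11 neither way, with a median log2 fold change of -0.16. That share called lower is near, and below, the 46.0% of abundant genes. Without TGFB1 10 were called lower, 5 higher and 9 neither way, with a median of -0.19. HNRNPU rose most and HNRNPAB fell most in the first comparison, and HNRNPA1 fell most in the second.

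HNRNPU, a scaffold attachment factor that binds chromatin and regulates U2 snRNP maturation, read 15365 and 15282 normalized reads in the controls, 16084 and 15522 after TGFB1, 24408 and 24432 after celastrol, and 26259.5 and 26399 after both agents. All libraries with celastrol lay above all those without it. The rise was 1.67-fold with TGFB1 (log2 0.74 ± 0.05, limma adjusted p = 6.66e-06) and 1.59-fold without it (0.67 ± 0.05, adjusted p = 1.48e-05), and it held under all 17 alternative settings. HNRNPU shares 15.6% of its exon bases with COX20 on the opposite strand, which had log2 fold changes of -0.21 and -0.23.

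The other calls toward higher values were small. HNRNPA2B1, a binder of m6A-marked and purine-rich RNA, had log2 fold changes of 0.23 with TGFB1 and 0.22 without it (limma adjusted p = 0.0265 and 0.0361). It read 16545 and 16366 normalized reads in the controls, 18819 and 16143 after TGFB1, 18846 and 19412 after celastrol, and 20671 and 20123 after both agents. Both celastrol groups lay above their comparison groups. The call with TGFB1 was lost without TGFB1 replicate 2 (0.12, adjusted p = 0.128), without either TGFB1 plus celastrol library (0.128 and 0.0811) and, narrowly, without celastrol replicate 1 (0.05). That without TGFB1 was lost without either control library (adjusted p = 0.105 and 0.125), either celastrol library (0.0972 and 0.163) or either library with both agents (0.0659 each). After median centring neither was called, at -0.06 with TGFB1 and 0.05 without it. HNRNPA0 (0.24, adjusted p = 0.00355) and HNRNPC (0.17, adjusted p = 0.038) were called higher without TGFB1 and not with it (-0.01 and 0.04). The HNRNPC call was lost without any 1 library of the control (adjusted p = 0.118 and 0.133), celastrol (0.0926 and 0.153) or TGFB1 plus celastrol group (0.0545 and 0.0544), and after median centring neither gene was called (0.07 for HNRNPA0 and -0.00 for HNRNPC).

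HNRNPAB, an A/B type hnRNP also described as a DNA-binding factor, read 3586 and 3482 normalized reads in the controls, 5094 and 4942 after TGFB1, 2648 and 2423 after celastrol, and 2742 and 2813 after both agents. Both TGFB1 libraries were the highest and the celastrol libraries were below the controls. Its log2 fold change with celastrol was -0.85 ± 0.06 with TGFB1 and -0.48 ± 0.06 without it (limma adjusted p = 6.68e-06 and 0.000204). It shares 9.14% of its exon bases with PHYKPL on the opposite strand, which had a log2 fold change of -1.73 with TGFB1.

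HNRNPR, which binds U-rich RNA and acts in axonal mRNA transport, read 7016 and 6755 (controls), 8798 and 8114 (TGFB1), 5565 and 5064 (celastrol) and 5626 and 5519 (both agents). The groups with and without celastrol did not overlap, and the log2 fold change was -0.60 with TGFB1 and -0.37 without it (limma adjusted p = 7.24e-05 and 0.0014). HNRNPUL2 read 2751 and 2814 (controls), 2929 and 3013 (TGFB1), 2056 and 2018 (celastrol) and 2016 and 2156 (both agents), with log2 fold changes of -0.51 and -0.45 (adjusted p = 7.98e-05 and 0.000221). It was also lower in every library with celastrol.

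HNRNPA1, an abundant binder of UAG motifs and a classical antagonist of SRSF1, read 7709.9 and 7839.5 in the controls, 8254 and 7931 after TGFB1, 4896 and 5272 after celastrol, and 5299.8 and 5771 after both agents. Libraries with and without celastrol did not overlap, and the log2 fold change was -0.55 ± 0.06 with TGFB1 and -0.61 ± 0.06 without it (limma adjusted p = 9.62e-05 and 6.85e-05). Its reads may be split with copies. Of the 31-base words of its transcripts 25.01% occur in other genes, and 55.7% of those of HNRNPA1P48 occur in HNRNPA1. HNRNPA1P48 had log2 fold changes of -0.15 (adjusted p = 0.0722) and -0.29 (adjusted p = 0.005), and HNRNPA1L2, with 76.4% shared words, was called in neither comparison.

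HNRNPUL2-BSCL2, a gene model for transcripts that run from HNRNPUL2 into its neighbor BSCL2, went the other way from its parts. It read 682 and 764 normalized reads in the controls, 676 and 817 after TGFB1, 901 and 934 after celastrol, and 1005 and 1001 after both agents, so the celastrol groups lay above the others. The log2 fold change was 0.43 with TGFB1 and 0.34 without it (limma adjusted p = 0.0051 and 0.0178), while BSCL2 had a value of -0.55 with TGFB1. Of its 31-base words 99.2% occur in other genes, so these values depend on how reads were divided among the 3 gene models, which was not given in the sources used here. This gene's call without TGFB1 was lost without control replicate 1 (0.26, adjusted p = 0.122) or either celastrol library (0.0585 and 0.0944), and both of its calls were lost after median centring (0.14 and 0.17).

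HNRNPH1, an hnRNP of the F/H type, read 17372 and 15997 normalized reads in the controls, 19171 and 17269.6 after TGFB1, 12956 and 12117 after celastrol, and 13209 and 13574 after both agents. Its libraries with celastrol all lay below those without it, with log2 fold changes of -0.44 with TGFB1 and -0.41 without it (limma adjusted p = 0.000725 and 0.00138). The remaining falls called in both comparisons were those of HNRNPA3 (-0.38 and -0.30), HNRNPD (-0.33 and -0.35), HNRNPDL (-0.33 and -0.28) and HNRNPH3 (-0.30 and -0.32). HNRNPH1 and HNRNPH3 bind G-runs, and HNRNPD and HNRNPDL bind AU-rich elements. HNRNPM was called lower in the comparison with TGFB1 (-0.16, limma adjusted p = 0.0419) and not in that without it (-0.08). That call was lost on leaving out any library other than TGFB1 plus celastrol replicate 2, for example TGFB1 plus celastrol replicate 1 (-0.10, adjusted p = 0.225), and its value was near 0 with a common total. The calls without TGFB1 of HNRNPA3 and HNRNPDL were lost without control replicate 1 (adjusted p = 0.0672 and 0.0568), and also without celastrol replicate 2 for HNRNPA3 (0.078) and celastrol replicate 1 for HNRNPDL (0.0509). The calls with TGFB1 of HNRNPD, HNRNPDL and HNRNPH3 were lost with a common total (adjusted p = 0.0653, 0.0546 and 0.155). HNRNPF, HNRNPH2, HNRNPK, HNRNPL, HNRNPLL and HNRNPUL1 were called in neither comparison, with log2 fold changes from -0.20 to 0.16. HNRNPCL1 was at 6.88 to 16.7 normalized reads, shares 74.4% of its words with other genes, and was not called.

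**Figure D3:**
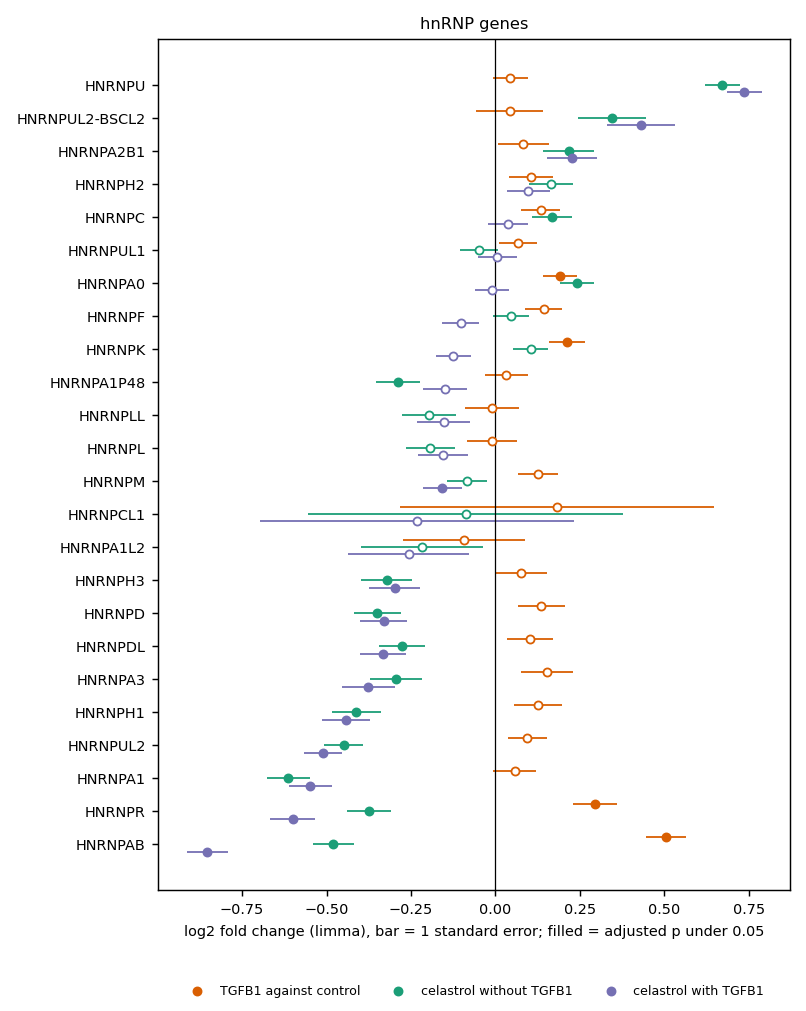
Log2 fold changes (horizontal axis, limma, bars of 1 SE) of the 24 HNRNP genes for TGFB1 against control and for celastrol without and with TGFB1, ordered by the last. Filled points have an adjusted p under 0.05, and the values with TGFB1 run from 0.74 for HNRNPU to -0.85 for HNRNPAB.

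TGFB1 alone moved fewer members, and all called changes were rises, although with a common total 2 members were called higher and 4 lower. Against control, 9 of 45 members were called higher and 0 lower with limma, beside 12.8% and 10.6% of all genes tested, and 26.8% and 10.6% of those with a mean of at least 500. The members' share called higher was above that of all genes tested and below that of abundant genes. The 9 were SRSF2, SRSF7, SRSF6, SRSF10, HNRNPAB, HNRNPR, HNRNPK, HNRNPA0 and TRA2B. The largest were SRSF2, with a log2 fold change of 0.52 ± 0.07 (limma adjusted p = 0.000795), HNRNPAB with 0.51 ± 0.06 (adjusted p = 0.000541), and SRSF7 with 0.41 ± 0.06 (adjusted p = 0.00164). HNRNPR followed with 0.30, SRSF6 with 0.24, SRSF10 and HNRNPK with 0.21, HNRNPA0 with 0.19 and TRA2B with 0.18.

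HNRNPK, a binder of C-rich RNA, read 13637 and 14112 normalized reads in control libraries and 16181 and 15950.2 with TGFB1. HNRNPA0, which binds AU-rich messages of inflammation, read 3184 and 3231 in control libraries and 3740.0 and 3591 with TGFB1. SRSF6, another binder of exonic enhancers, read 5816 and 5655 in control libraries and 6909 and 6636 with TGFB1. In each of these 3 genes both TGFB1 libraries lay above both controls. The same held for members that were not called, such as HNRNPF and SRPK2.

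The count of 9 rested on the libraries used. Leaving out control replicate 1 gave 4, leaving out control replicate 2 gave 3, and leaving out TGFB1 replicate 1 gave 3. It was 25 after median centring. HNRNPAB and SRSF2 were called higher under all 17 alternative settings. SRSF7 was called under all of them except the common total (0.18, adjusted p = 0.0523). The calls of HNRNPK, HNRNPA0 and SRSF6 were lost without either control library or TGFB1 replicate 1, and that of HNRNPR without control replicate 2 or TGFB1 replicate 1. That of SRSF10 was lost on leaving out any library other than TGFB1 replicate 2, and that of TRA2B on leaving out any library.

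In the presence of celastrol, TGFB1 changed no member by the same test. Limma called 0 of 45, beside 0.00875% of all genes tested, 1 member (HNRNPA1P48) had an unadjusted p under 0.05, and the count was 0 under each of the 17 alternative settings. SRSF2 read 2593 and 2319 after celastrol and 2523 and 2596 after both agents, and the log2 differences of all 45 members lay between -0.78 and 0.65. The ends of that range were SRSF12 and SRPK3, both of low level. The 24 HNRNP genes lay between -0.13 and 0.17. The standard error of a member at the level of SRSF2 was 0.07, and a p that misses the threshold does not show that the values were the same.

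**Figure D4:**
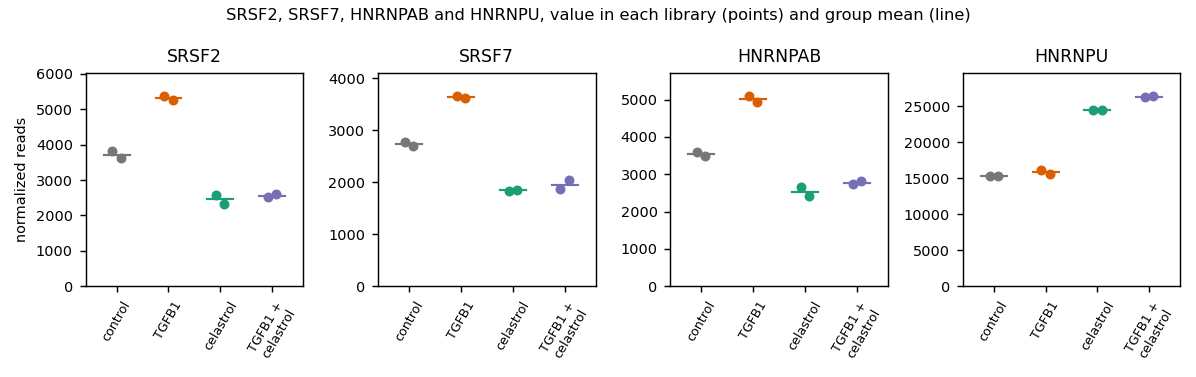
Normalized reads (vertical axis, from 0, its own scale in each panel) of SRSF2, SRSF7, HNRNPAB and HNRNPU, with 1 point per library and a line at the mean of the 2 libraries. The first 3 are highest in the TGFB1 libraries and lowest in those with celastrol, and HNRNPU is highest in the 4 libraries with celastrol.

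The celastrol change was compared between the conditions with and without TGFB1 by an interaction term. Limma called 3 of 45 members, all with a larger fall in the presence of TGFB1, beside 6.89% of all genes tested and 15.7% of the abundant ones called in that direction. In the other direction it called 0 members, beside 4.36% and 5.66%. The difference in log2 fold change was -0.46 ± 0.09 for SRSF2 (adjusted p = 0.0168), -0.37 ± 0.08 for HNRNPAB (adjusted p = 0.0264) and -0.33 ± 0.08 for SRSF7 (adjusted p = 0.0408). Each of the 3 was higher with TGFB1 than in control, and the libraries of its celastrol groups were 1830.4 to 2034 for SRSF7, 2319 to 2596 for SRSF2 and 2423 to 2813 for HNRNPAB. These comparisons share libraries, so the falls with celastrol and the rises with TGFB1 in these genes are not independent. With every library divided by its total the 3 values were -0.22 (adjusted p = 0.176), -0.14 (0.357) and -0.09 (0.532). Each call was also lost with 1 library left out. For SRSF2 these were control replicate 2 (adjusted p = 0.0735) and either TGFB1 plus celastrol library (0.0753 and 0.0654). For HNRNPAB they were any but TGFB1 replicate 2 and celastrol replicate 2 (0.0539 to 0.1), and for SRSF7 any but TGFB1 plus celastrol replicate 2 (0.0668 to 0.139). The number called with 1 library left out was 0 to 2. The interaction values of the 4 CLK kinases lay between -0.06 and 0.03.

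How the libraries are scaled bears on the smaller changes and on the direction of uncalled ones. For TGFB1 against control 38 of 45 members had a log2 fold change above 0 as deposited, 6 with a common total and 43 after median centring, and for celastrol with TGFB1 these counts were 9, 20 and 5. Dividing each library by its total moved the median of all genes by -0.21 for TGFB1 against control, 0.15 for celastrol with TGFB1 and -0.08 without it (log2), and median centring moved it by 0.12, -0.29 and -0.17. With the common total 10 members were called higher and 19 lower with celastrol and TGFB1, and with median centring 4 and 37. The SRSF counts were 0 higher with 10 lower and 0 higher with 11 lower. The HNRNP counts were 7 higher with 6 lower for the common total and 1 higher with 20 lower for median centring. Of the 25 falls and 6 rises called with TGFB1, 19 falls and the rises of CLK1, CLK3 and HNRNPU were called the same way under all 17 alternatives, and of the 22 falls and 7 rises without TGFB1, 17 and 3. SRPK3, the other rise not lost, entered the tests through the group where it was high and was not tested under 3 of the alternatives, so it is left out of that statement.

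**Figure D5:**
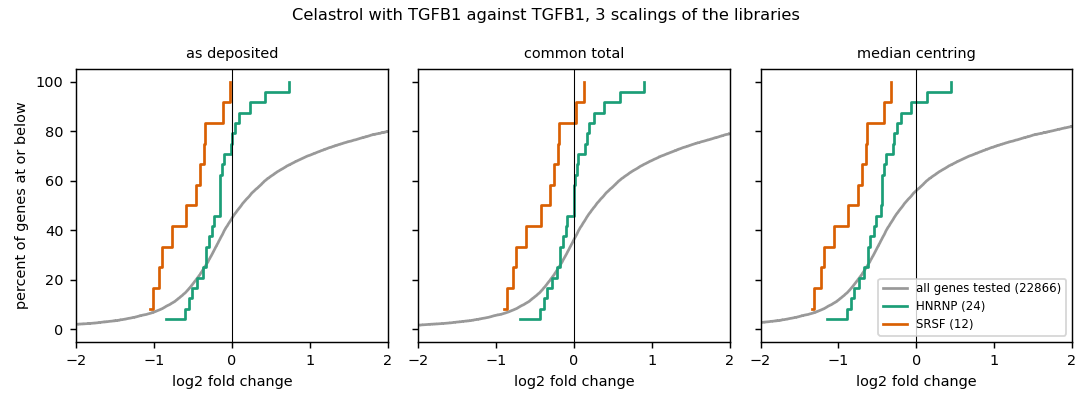
Percent of genes (vertical axis) at or below each log2 fold change (horizontal axis, drawn from -2 to 2) for celastrol with TGFB1 against TGFB1, with the libraries as deposited, divided by a common total, or median centred. The curve of the 12 SRSF genes lies left of 0 as deposited and after median centring, and with the common total 2 of the 12 lie above 0, the highest at 0.13. That of the 24 HNRNP genes shifts with the scaling.

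The same families differ from other genes in their annotated transcripts. In GENCODE release 29, 33 of the 45 members (73.3%) have a transcript marked for nonsense-mediated decay, against 41.2% of the 14474 other protein-coding genes tested. All 12 SRSF genes and both TRA2 genes have one, as do 14 of 24 HNRNP genes and 3 of 4 CLK genes. CLK2 has neither such a transcript nor one with a retained intron, whereas CLK1 has 2 and 8, CLK3 has 3 and 8, and CLK4 has 3 and 7. A transcript with a retained intron is annotated for 30 members (66.7%), against 54.7% of the other genes, and for 14 of 24 HNRNP genes (58.3%). Members also have more annotated transcripts, with a median of 11 against 7 per gene. The 2 sets were not matched for number of transcripts or for abundance. The table gives 1 value per gene, so forms with a poison exon or retained intron were not measured apart from coding forms.

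Other parts of the splicing machinery were read from 8 gene lists, for which counts are given with no test of the list. With celastrol and TGFB1, 25.9% of all genes tested were called lower and 37.5% higher, and of the abundant ones 46.0% and 22.6%. The counts of each list in that comparison stand beside these shares. Of 28 U snRNP protein genes, 18 were called lower and 1 higher. SNRNP70, the U1 protein that contacts SR proteins, went from a mean of 1787 to 899 normalized reads with TGFB1 and from 1698 to 882 without it, log2 fold changes of -0.99 and -0.94. By p-value, PRPF3 of the U4/U6 particle (-0.91) and the Sm protein gene SNRPD1 (-0.94) were next. Of 17 genes for branch site and 3′ splice site factors, 12 were called lower and 0 higher. Their smallest p-values, not always their largest changes, were those of the helicase genes DDX46 (-0.89) and DHX15 (-0.46) and of RBM17 (-0.73), which encodes a U2-associated factor.

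In the same comparison, 8 of 20 Prp19 complex and catalytic-step genes were called lower and 3 higher. That share called lower is below that of abundant genes. Their smallest p-values belonged to SLU7, a factor of the last catalytic step, which rose by 0.62, and to CDC5L (-0.50) and DHX16 (-0.48). Of 19 exon junction and nonsense-mediated decay genes, 11 were called lower and 3 higher. By p-value the first 3 were the endonuclease gene SMG6 (-0.83) and ACIN1 (-0.70) and RNPS1 (-0.79), both of exon junction associated complexes, and UPF1, singled out after its values were seen, had a larger fall (-0.86).

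SR-related proteins had 15 of 26 genes called lower and 3 higher. LUC7L, of the U1 particle, had a log2 fold change of -1.51, RBM25 of -0.89, and SCAF4, which acts at transcript ends, of 0.84. The hnRNP proteins with other names had 15 of 24 genes called lower and 2 higher. Among them were TARDBP, which binds UG-rich RNA (-0.72), and PTBP1, which binds pyrimidine tracts (-0.55).

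The remaining lists were mixed, and in each the share called lower with celastrol and TGFB1 was below that of abundant genes. Among 24 tissue splicing regulators in the table, 8 were called lower and 6 higher, with MBNL2 (1.69), a muscleblind protein that binds YGCY motifs, and CELF2 (1.56) rising and RBM5 (-0.78) falling. ESRP1 and RBM20 are not listed in the table. Among 19 other SR kinases and transport factors, 9 were called higher and 6 lower, with the mRNA export receptor gene NXF1 (1.03) and the kinase gene DYRK1A (0.95) rising and the kinase gene PRPF4B (-0.87) falling. Without TGFB1 the counts lower and higher were 14 and 2 for the U snRNP list, 5 and 0 for branch and 3′ splice site factors, 6 and 6 for the Prp19 list, and 9 and 1 for exon junction and decay factors. They were 10 and 3 for SR-related proteins, 12 and 4 for the hnRNP proteins with other names, 7 and 9 for tissue regulators, and 5 and 8 for the other kinases and transport factors. Beside these, 21.3% of all genes tested were called lower and 33.8% higher, and of the abundant ones 32.5% and 23.8%. The shares called lower for branch and 3′ splice site factors, the Prp19 list, tissue regulators and the other kinases were below that of abundant genes. With TGFB1 alone, 11 of the 17 branch and 3′ splice site genes and 6 of the 28 U snRNP genes were called higher, with 0 called lower in either list, beside the 12.8% of all genes tested and 26.8% of the abundant ones called higher in that comparison.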

How the data were processed

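The deposited table holds 1 signal value per gene and library. Partek 10.0.22, STAR 2.7.3a, DESeq2 and build hg38 are named in the submitters' processing notes, without roles. The counting rule, strand use and annotation release were not given in the sources used here. In each library the deposited signal values have a median ratio of 1.0077 to the geometric mean over 20682 genes, as division by 1 size factor leaves, and 73.6% to 76.0% of values under 1000 reads lie within 0.02 reads of a whole number of reads. No count model was therefore fitted. Library totals in reads come from that step, and limits from counts cover counting error only.

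Values were taken as log2(value + 1). The pseudocount of 1 understates fold changes of low genes. Genes with at least 10 in at least 2 libraries (22866) were fitted in R 4.3.3 using limma 3.58.1, a variance trend, 1 mean per group and 4 residual degrees of freedom. Tests were two-sided, with Benjamini-Hochberg adjustment within each of 5 comparisons and a threshold of 0.05. The script was tested on simulated data in which only abundant genes changed. Those changes were larger than the smaller ones called here, to which the test does not extend. Named genes were all CLK, SRPK and TRA2 members, the SRSF and HNRNP members with the 4 largest rises and falls called per comparison, members with a mean under 10, and up to 3 genes per splicing list by smallest p. Members, lists and rules were chosen with earlier results of these data known. Positions are GRCh38, 1-based, and exon overlaps, 31-base words and transcript types are from GENCODE release 29, to which all 45 members matched; the authors' release may differ. Promoter windows are from RefSeq. Protein sequences were not used here, and 1 gene that the rule would name from a splicing list and the immune marker list are not reported here. The closing section gives the effect of 17 alternatives.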

Additional observations from a re-analysis of the deposited data

Results flagged for a closer look

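The celastrol change with TGFB1 minus that without it was -0.4553 (log2) for SRSF2, -0.373 for HNRNPAB and -0.3271 for SRSF7, and the interaction test of limma called each (adjusted p = 0.0168, 0.0264 and 0.0408). After median centring the values were -0.57 (adjusted p = 0.00412), -0.49 (0.00654) and -0.44 (0.0108). With a common total they were -0.22 (0.176), -0.14 (0.357) and -0.09 (0.532). No other member was called by this test. It called 6.89% of all genes tested and 15.7% of the abundant ones in that direction, and the members' share was above neither.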

How the results depend on the processing

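Counts of called members under the alternatives, against the main values, were as follows. For TGFB1 against control (9 higher, 0 lower), 2 were called higher and 4 lower with a common total, 25 higher after median centring, 3 higher with only the libraries compared, 3 higher and 1 lower without a variance trend, and 3 to 11 higher with 1 library left out. For celastrol with TGFB1 (6 higher, 25 lower), 10 were called higher with a common total, and 4 to 6 higher and 22 to 24 lower with 1 library left out. For celastrol without TGFB1 (7 higher, 22 lower), 3 were called higher after median centring, and 4 to 7 higher and 18 to 24 lower with 1 library left out, the lowest count of rises being reached without control replicate 1 or either celastrol library. For the interaction (0 higher, 3 lower), 3 were called higher and 0 lower with a common total, 1 higher and 0 lower without a variance trend, 5 lower with a minimum of 50, 11 lower after median centring, and 0 to 2 lower with 1 library left out. Without a variance trend, the 1 member called lower for TGFB1 and the 1 called higher for the interaction were SRPK3. Its differences are a description only, because it entered the tests through the group where it was high. The pseudocounts of 0.5 and 10 and no filter moved no count by over 1.5 times. The interaction uses all 8 libraries, so the fit to only the libraries compared gave no value for it, and SRPK3 was not tested with a minimum of 50 or without either TGFB1 plus celastrol library. With a replicate block, members called higher and lower were 12 and 0 for TGFB1 alone, 6 and 30 for celastrol on top of TGFB1, 8 and 25 without it, and 0 and 7 for the interaction. The differences between replicates 1 and 2 correlated across genes at 0.0499 to 0.0815 between groups. Genes of low level enter that value, so it cannot decide whether libraries of the same number were handled together. The column headers number all replicate 1 libraries ahead of all replicate 2 libraries, and what that order means was not given. Another label of celastrol replicate 2 gives it the number 3.

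Among changes called in the main or the alternative fit, some turned sign. With a common total and TGFB1 against control, HNRNPA0 was -0.0336, HNRNPK -0.0142, HNRNPU -0.18, SRSF10 -0.0177 and TRA2B -0.0466. With a common total and celastrol with TGFB1, HNRNPA0 was 0.15, HNRNPM 0.00036 and TRA2B 0.0161. After median centring HNRNPA2B1 was -0.0616, HNRNPC -0.25, HNRNPH2 -0.19 and HNRNPUL1 -0.28 with TGFB1, and HNRNPC -0.0028 without it. The cause was not tested. SRPK3 and HNRNPCL1 are near the limit set by depth. Values per gene do not separate transcript forms, and overlapping genes cannot be told apart where strand was not used.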
